A study of Mus musculus with 5 samples.

Results

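Myostatin, the activins and the follistatins were followed across primary mouse myoblasts as a set of 10 named genes: the ligand genes Mstn, Gdf11, Inhba and Inhbb, the receptor genes Acvr1b, Acvr2a and Acvr2b, and the follistatin genes Fst, Fstl1 and Fstl3. The genes are a list of names fixed by their place in the pathway, drawn up with earlier results of these data known, and all 10 were found by identifier among the 54232 genes of the table. RNA was sequenced from 3 WT samples and 2 Elmo2EID/EID samples (EID below) of these cells, all taken from the leg muscles of mice aged 6 to 8 weeks on a mixed C57BL6 and 129SV background, purified with magnetic beads for satellite cells and integrin alpha-7, grown on gelatin and then kept in 2% horse serum for 72 h. ELMO2 is an adaptor that brings DOCK exchange factors to the small GTPase RAC, and the EID allele is a knock-in made by homologous recombination that favours the open form of the protein. The allele is carried by every cell of the animal, and its effect in the muscle cell lineage alone was not measured here. The comparison asks which genes differ in expression between differentiated myoblasts of these genotypes.

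Myostatin and the activins are secreted dimers of the TGF-beta family. They bind a type II receptor, ACVR2A or ACVR2B, which recruits a type I receptor such as ACVR1B, and the complex phosphorylates SMAD2 and SMAD3, which enter the nucleus with SMAD4. Myostatin is made by skeletal muscle and restrains its growth, activin A acts in the same direction, and follistatin binds these ligands and keeps them from their receptors.

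The deposited values are read counts divided by a size factor for each sample, here called normalized counts. The samples held 35021856 to 49381544 counted reads, and all 10 genes were far above the 3 reads (2.65 to 3.73 normalized counts, by sample) taken as the floor. The defining genes of the myogenic lineage were present in every sample, and the 12 myoblast and myotube markers summed to 1614200 to 1817300 normalized counts in WT and 1525200 to 1722500 in EID. This sum is carried by the most abundant structural genes of the list. Pax7, a marker of satellite cells in the same list, was lower in EID, with 922, 942 and 837 normalized counts in WT and 414 and 298 in EID. Its log2 fold change was -1.35 (limma adjusted p = 0.00764), and -1.12 without EID replicate 2. Myf5, also in the list, went the other way without passing (0.74, limma adjusted p = 0.237). It had 3122, 2188 and 4399 normalized counts in WT and 5152 and 5254 in EID. Of the 12 markers, 3 had groups apart and higher in EID and 5 apart and lower, against 32.6% of all genes apart. Endothelial markers also differed between the samples. Of the 12 tested, 0 passed the limma test (smallest adjusted p = 0.069), 2 edgeR and 5 DESeq2 (2.23%, 2.25% and 5.34% of all genes did). Their 12 genes summed to 991, 246 and 1049 normalized counts in WT and to 2688 and 4000 in EID, with none at 0 throughout, and WT replicate 2 was the lowest WT sample for 12 of the 12. Among the 7 fibroblast markers tested, WT replicate 2 was the lowest WT sample for all but Dpep1, with a tie at 0 for Dpt. The 10 fibroblast markers summed to 7626 to 8921 normalized counts in WT and 10726 to 10948 in EID, and most of this was Dpep1, with 6437 to 8402 and 9249 to 9822. Without Dpep1, a choice made after the values were seen, the other 9 summed to 1978, 339.9 and 1189.6 in WT and 904 and 1699 in EID, so that the groups overlapped, with Lum and Pi16 at or under the floor in every sample. In bulk RNA, more cells of a type and more RNA in each of its cells cannot be told apart.

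Transcripts of all 10 genes were detected in every sample, and the genotype difference of none of them passed the test. With limma over the 18156 genes that reached 5 normalized counts in 1 sample or more, 0 of the 10 genes had an adjusted p under 0.05 (Benjamini-Hochberg), against 404 of all genes tested (2.23%, 197 higher and 207 lower in EID). The edgeR quasi-likelihood test (2.25% of all genes) and the DESeq2 Wald test (5.34%), both on the recovered reads, also called 0 of the 10. At an unadjusted p under 0.05, 1 gene stood out, Inhbb, against 15.2% of all genes. The samples of the genotypes did not overlap for 3 of the 10, Inhba with higher values in EID and Gdf11 and Inhbb with lower ones, against 32.6% of all genes. The median log2 fold change (EID over WT) was 0.04 for the 10 genes and 0.01 for all genes tested, and 5 of the 10 were above 0, against 52.1% of all genes.

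**Figure D1:**
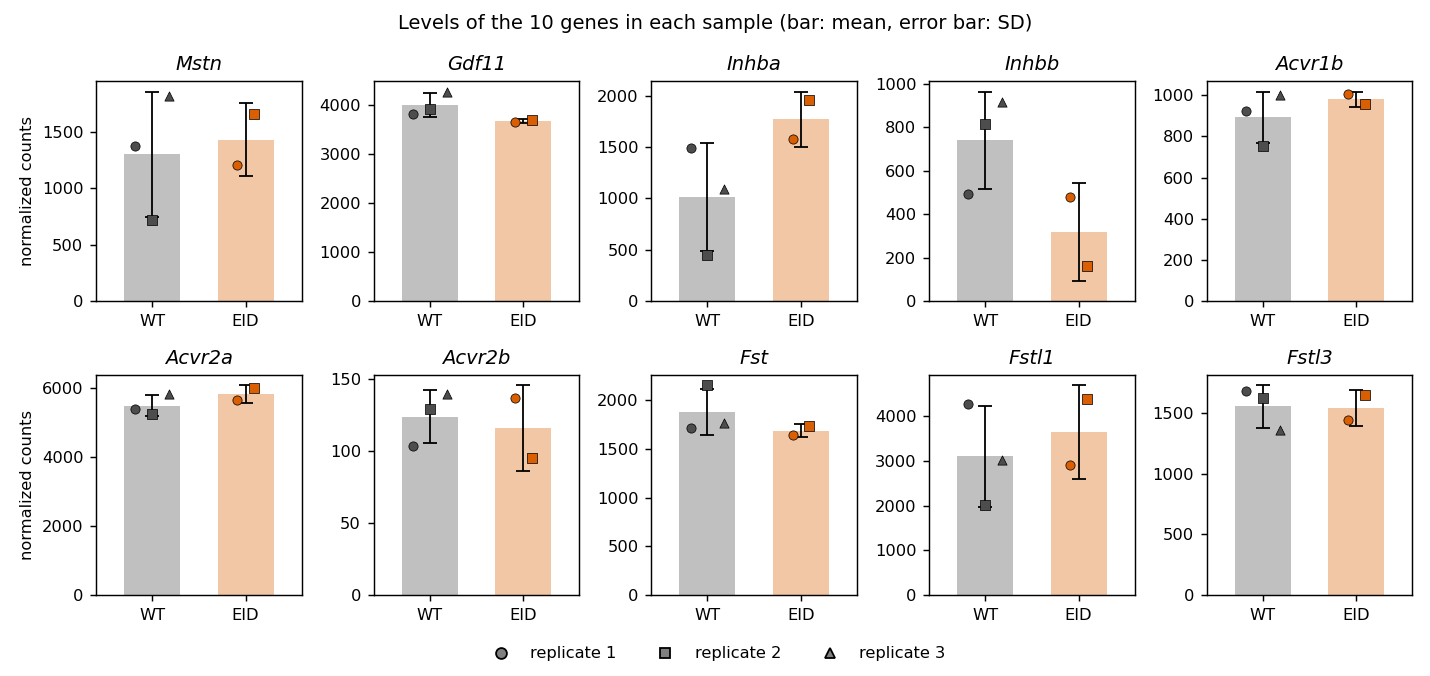
Normalized counts of each gene (y axis, from 0, own scale in each panel) in the 3 WT and 2 EID samples. Bars are means, error bars SD and symbols single samples by replicate number. The WT samples of Mstn span 717 to 1819.9 and take in both EID samples, whereas those of Gdf11 stay between 3802 and 4266.

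Mstn encodes myostatin. The gene (ENSMUSG00000026100, GRCm38 chromosome 1, 53061640 to 53068079, plus strand) had 1376, 717 and 1819.9 normalized counts in WT and 1206 and 1662 in EID. The lowest and the highest of the 5 values were both WT. The group levels were 1304 ± 555 (SD, n = 3) and 1434 ± 323 (SD, n = 2), and the log2 fold change was 0.22 (standard error 0.37, 95% interval -0.65 to 1.09, adjusted p = 0.836 from limma). Its direction rested on single samples, since the log2 fold change was -0.16 without WT replicate 2 and -0.01 without EID replicate 2.

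Gdf11 encodes the closest relative of myostatin, which acts through the same receptors. The gene (ENSMUSG00000025352, chromosome 10, 128882295 to 128891718, minus strand) had 3802, 3908 and 4266 normalized counts in WT and 3637 and 3694 in EID. Both EID samples were below every WT sample, by a small margin. The levels were 3992 ± 243 (SD, n = 3) and 3665 ± 39.8 (SD, n = 2), and the log2 fold change was -0.12 (standard error 0.07, 95% interval -0.29 to 0.05, adjusted p = 0.479 from limma). Of the 4 ligand genes, Gdf11 had the narrowest interval.

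Because Mstn and Gdf11 are paralogues, the separation of their reads was checked on sequence. Their coding sequences, of 1131 and 1218 bases, were identical at 58.7% of aligned positions and at 74.8% of the last 330 bases, which roughly span the mature ligand. The longest run they shared was 12 bases, far shorter than a 50-base read, and none of the 2704 and 4013 words of 50 bases in their exons occurred in another annotated gene. The run lies in exon 2 of 3 of both genes and is shown in capitals within its surroundings, 5′ to 3′ on the coding strand, to let the difference between the transcripts be seen (GRCm38, chr1:53063949-53064000, plus strand, and chr10:128886428-128886479, minus strand).
Mstn: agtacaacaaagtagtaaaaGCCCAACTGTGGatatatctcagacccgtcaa
Gdf11: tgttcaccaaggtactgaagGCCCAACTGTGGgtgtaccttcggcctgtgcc

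Inhba encodes the beta A subunit that forms activin A. The gene (ENSMUSG00000041324, chromosome 13, 16011851 to 16031621, plus strand) had 1491, 451 and 1096 normalized counts in WT and 1579 and 1961 in EID. Both EID samples lay above every WT sample, although WT replicate 1 came close to the lower of them, and WT replicate 2 was far below the other WT samples. The levels were 1013 ± 525 (SD, n = 3) and 1770 ± 269.6 (SD, n = 2), a ratio of means of 1.75, and the log2 fold change was 0.96 (standard error 0.46, 95% interval -0.12 to 2.05, adjusted p = 0.388 from limma). Without WT replicate 2 it was 0.46 (adjusted p = 0.361). The endothelial marker sums given above had the same order of groups and the same low WT sample as Inhba, the fibroblast markers other than Dpep1 and the Schwann markers had the same low WT sample, and the part of any of these in its level was not tested.

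Inhbb encodes the beta B subunit of activin B. The gene (ENSMUSG00000037035, chromosome 1, 119415465 to 119422248, minus strand) had 491, 815 and 919 normalized counts in WT and 479 and 160.5 in EID. The groups were just apart, since WT replicate 1 and EID replicate 1 were nearly level, and EID replicate 2 stood far below all other samples. The levels were 742 ± 223 (SD, n = 3) and 319.9 ± 225 (SD, n = 2), a ratio of means of 0.431, and the log2 fold change was -1.37 (standard error 0.46, 95% interval -2.47 to -0.26). The unadjusted p was 0.0227 and the adjusted p 0.231 from limma, so that Inhbb did not pass over all genes. EID replicate 2 decided the size of this difference, which was -0.58 on the log2 scale without it and -2.15 without EID replicate 1, with adjusted p-values of 0.662 and 0.126.

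Of the receptor genes, Acvr2a encodes a type II receptor for activins and myostatin. The gene (ENSMUSG00000052155, chromosome 2, 48814109 to 48903269, plus strand) had 5409, 5243 and 5826 normalized counts in WT and 5649 and 6013 in EID. The samples were interleaved, and the log2 fold change was 0.09 (standard error 0.07, 95% interval -0.08 to 0.25, adjusted p = 0.631 from limma). Part of its exons lies opposite exons of Orc4, a replication gene with 1651 to 1832 normalized counts, and 6.98% of its 50-base words also occur in that gene on the other strand, which the strand-specific counting of the authors keeps apart. Acvr2b, the other type II receptor (ENSMUSG00000061393, chromosome 9, 119402118 to 119434995, plus strand), had 103, 129 and 139 normalized counts in WT and 137 and 95.03 in EID. Its EID samples lay near the top and at the bottom of the 5 values, and the log2 fold change was -0.11 (standard error 0.22, 95% interval -0.63 to 0.42, adjusted p = 0.869 from limma). It was 0.15 without EID replicate 2 and -0.37 without EID replicate 1. Acvr1b, the type I receptor also called ALK4 (ENSMUSG00000000532, chromosome 15, 101174067 to 101213684, plus strand), had 923, 754 and 998 normalized counts in WT and 1006 and 955 in EID. The groups overlapped, with WT replicate 2 again the lowest sample, and the log2 fold change was 0.15 (standard error 0.13, 95% interval -0.15 to 0.45, adjusted p = 0.658 from limma).

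Of the follistatin genes, Fst encodes follistatin itself, which encloses activins and myostatin almost irreversibly. The gene (ENSMUSG00000021765, chromosome 13, 114452290 to 114458951, minus strand) had 1718, 2152.5 and 1765 normalized counts in WT and 1640.2 and 1736 in EID. WT replicate 2, low for the ligand genes Mstn and Inhba, was the highest of the 5 samples for Fst. The log2 fold change was -0.15 (standard error 0.11, 95% interval -0.41 to 0.11, adjusted p = 0.592 from limma). Fstl3 encodes a second secreted inhibitor of activin and myostatin (ENSMUSG00000020325, chromosome 10, 79777272 to 79782630, plus strand) and had 1679.6, 1624 and 1355 normalized counts in WT and 1437 and 1645 in EID. The groups overlapped fully, and the log2 fold change was -0.01 (standard error 0.11, 95% interval -0.28 to 0.26, adjusted p = 0.983 from limma). A large part of Fstl3 (46.2% of its 50-base words) lies opposite Prss57, which had 1.79 to 7.85 normalized counts. Fstl1 shares the follistatin domain but belongs to a separate branch of secreted glycoproteins (ENSMUSG00000022816, chromosome 16, 37776873 to 37836514, plus strand). It had 4264, 2013 and 3008 normalized counts in WT and 2902 and 4378 in EID, so that the groups overlapped, and 5.35% of its 50-base words occur in other genes, where unique counting may lose reads. Its log2 fold change of 0.27 (standard error 0.31, 95% interval -0.47 to 1.01, adjusted p = 0.751 from limma) became -0.01 without WT replicate 2 and -0.03 without EID replicate 2.

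**Figure D2:**
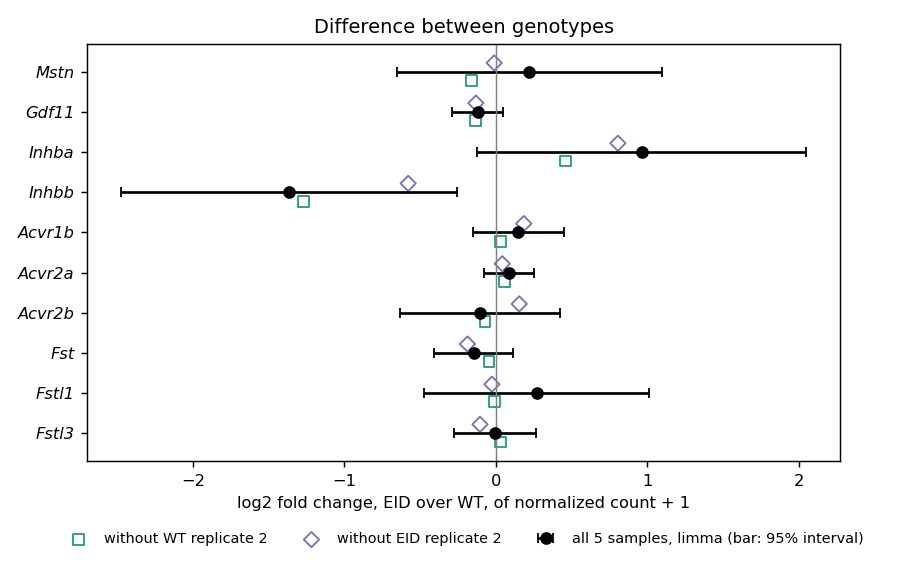
Log2 fold change of each gene, EID over WT (x axis, on the scale of normalized count + 1). Filled points with bars are limma estimates over all 5 samples with 95% intervals, squares are estimates without WT replicate 2 and diamonds without EID replicate 2. The interval of Inhbb (-2.47 to -0.26) is the only one that leaves out 0, without adjustment for the number of genes tested.

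The intervals place the 10 genes in 2 classes. For Gdf11, Acvr1b, Acvr2a, Acvr2b, Fst and Fstl3 they stayed between -0.63 and 0.45, so that larger differences in either direction lay outside the 95% interval of each gene. For Mstn, Inhba, Inhbb and Fstl1 they reached from -2.47 to 2.05, and these data leave the size of a difference in these genes undetermined. These 4 genes also varied widely within groups. The highest WT sample exceeded the lowest by 2.54-fold for Mstn, 3.31-fold for Inhba and 2.12-fold for Fstl1, whereas this ratio had a median of 1.13 over the 11223 genes whose mean was 100 normalized counts or more and reached 2-fold in 2.33% of them. For Inhbb the ratio was 1.87 within WT and 2.99 within EID.

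WT replicate 2 was the lowest WT sample for Mstn, Inhba, Fstl1, Acvr1b and Acvr2a, 5 of the 10 genes, and it was the lowest for 33.5% of all genes tested. In log2 units from the mean of the 5 samples, Mstn stood at -0.85, Inhba at -1.39 and Fstl1 at -0.66 in this sample, while Gdf11, Fst and Fstl3 stood at 0.02, 0.26 and 0.07. Of the 53 other pathway genes tested, this sample was the lowest WT sample for 22 (41.5%), and 4 that were low in it were chosen for display after their values were seen. Tll1, a protease of the family that releases myostatin from its propeptide, stood at -1.73, and Ccn2 and Col1a1, which respond to SMAD3 in many cells, at -1.22 and -1.13. Smad7, an inhibitor induced by the pathway, stood at -0.62. Other response genes went the other way, since Cdkn1a and Pmepa1 had their highest WT value in this sample. The endothelial marker sum stood at -2.31 in this sample, the sum of the fibroblast markers other than Dpep1 at -1.61, the Schwann marker sum at -1.51 and the myoblast marker sum at 0.11. With Dpep1 the fibroblast sum stood at -0.09. The part of these other cells in the low values was not tested.

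**Figure D3:**
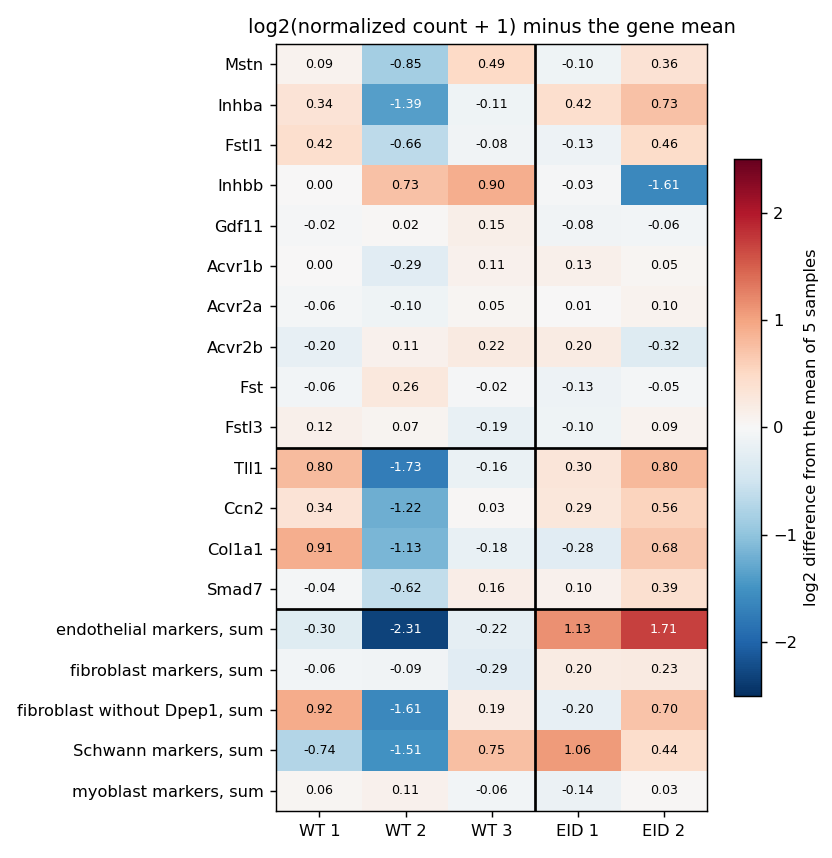
Colours and numbers give log2(normalized count + 1) of each sample (columns) minus the mean of the 5 samples, for the 10 genes (top block), 4 genes of the pathway lists chosen after their values were seen (middle) and summed marker genes (bottom). WT 2 is low for Mstn (-0.85), Inhba (-1.39) and Fstl1 (-0.66) and for the sums of endothelial markers (-2.31) and of fibroblast markers without Dpep1 (-1.61), and not for Gdf11 (0.02) or Fst (0.26).

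The genes whose pattern over the 5 samples was most like that of Mstn were sought among the 10793 protein-coding genes whose mean was 100 normalized counts or more, by the root mean square difference between log2 values centred on each gene. Abcc4, an exporter of cyclic nucleotides and other organic anions, was the nearest at 0.09 log2 units, with 194, 113 and 245 normalized counts in WT and 186 and 238 in EID. Tbx2, a T-box transcriptional repressor, followed at 0.09 and Slc7a11, the cystine and glutamate exchanger, at 0.13, whereas the median gene differed from Mstn by 0.48. With 5 samples, such likeness is a description of these libraries.

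The upstream sequences of the paralogues Mstn and Gdf11 were set beside each other to show how far the paralogues differ outside their coding sequence. The 250 bases before the annotated start are shown from RefSeq (GRCm38.p6, chr1:53061390-53061639, plus strand, and chr10:128891719-128891968, minus strand, 5′ to 3′ in the direction of transcription), with every E-box, CANNTG, the core recognised by MYOD and related factors, in capitals.
Mstn: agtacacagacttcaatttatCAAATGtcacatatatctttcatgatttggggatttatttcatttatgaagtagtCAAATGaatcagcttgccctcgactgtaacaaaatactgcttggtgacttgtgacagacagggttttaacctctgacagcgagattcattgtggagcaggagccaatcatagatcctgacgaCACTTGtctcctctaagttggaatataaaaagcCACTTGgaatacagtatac
Gdf11: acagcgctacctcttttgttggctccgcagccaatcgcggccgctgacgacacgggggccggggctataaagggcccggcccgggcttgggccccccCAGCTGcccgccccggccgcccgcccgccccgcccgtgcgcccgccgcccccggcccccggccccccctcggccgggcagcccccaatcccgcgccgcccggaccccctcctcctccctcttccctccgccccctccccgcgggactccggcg
The Mstn sequence held 4 E-boxes and 38.4% G and C, and the Gdf11 sequence 1 E-box and 81.2%. Of 32851 promoters of this length, 66.2% held an E-box and 3.84% held at least 4, and the median G and C content was 52.4%. CAGAC, a core bound by SMAD3, was searched on both strands and was found in 42.2% of these promoters, among them those of Mstn and Fstl3 (2 matches each) and of Acvr2a and Acvr2b (1 each). Fstl3 held 3 E-boxes, Acvr1b 1 and the other 5 of the genes with a promoter sequence 0. A promoter sequence was at hand for 9 of the 10 genes, all but Fst. A match is a string of letters, and binding was not measured.

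Levels of different genes can be compared once the normalized counts are divided by the length of the merged exons in kilobases. On this scale, Acvr2a (mean of the 5 samples 989.8 per kb) and Gdf11 (951) came first, then Fstl1 (674), Fstl3 (633), Mstn (501) and Fst (393), then Acvr1b (209.9), Inhba (206) and Inhbb (135), and last Acvr2b (30.7). Neighbours in this order were mostly within the spread of the samples. The ranges of the 5 samples were apart from the next gene at 3 steps only, from Gdf11 to Fstl1, from Fst to Acvr1b and from Inhbb to Acvr2b. With the length of the longest transcript in place of the merged exons, the first and the last of these gaps closed, since Fstl1 reached 1156 per kb against a lowest value of 895 for Gdf11, and Acvr2b 43.9 against 37.7 for Inhbb. At the 6 other steps the ranges overlapped, and Acvr2a exceeded Gdf11 in 3 of 5 samples. Inhbb came last but one in spite of EID replicate 2, in which it had 37.7 per kb against 24.2 for Acvr2b.

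**Figure D4:**
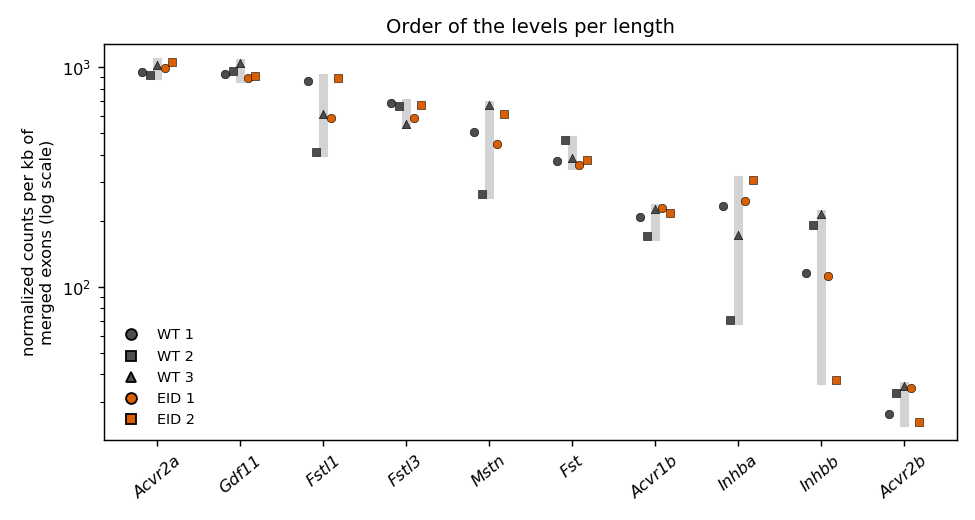
Normalized counts per kilobase of merged exons (y axis, log scale) for the 10 genes in the order of their means. Symbols are single samples and grey bars their range. Acvr2b, at 24.2 to 35.4 on this length, lies below every other gene, and Acvr2a and Gdf11 overlap at the top.

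Ratios of these levels within a sample showed which relative predominated. Mstn stood below Gdf11 in all 5 samples, at 0.543, 0.275 and 0.641 of its level in WT and 0.498 and 0.676 in EID. The type II receptors were the most unequal pair, with Acvr2a at 28.1 to 36.1 times Acvr2b in WT and 28.5 and 43.7 times in EID. The Acvr1b level was 0.258 to 0.330 of that of Tgfbr1, the type I receptor of TGF-beta that also transmits myostatin signals, in WT and 0.369 and 0.315 in EID. Fst stood below Fstl3 in every sample, at 0.545 to 0.706 of its level.

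The ratio of Inhba to Inhbb differed most between samples. It was 2.02, 0.368 and 0.795 in WT and 2.19 and 8.14 in EID, so that the groups were apart but WT replicate 1 and EID replicate 1 were nearly equal. On the log2 scale, the ratio had a WT mean of -0.25 ± 1.23 (SD, n = 3) and an EID mean of 2.08 ± 1.337 (SD, n = 2), a difference of 2.33. It combines genes whose separate differences did not pass the test, and it was not tested as a score. The ratio of Fst to Mstn was below 1 in 4 of 5 samples, at 0.736, 1.77 and 0.572 in WT and 0.802 and 0.616 in EID, and its mean on the log2 scale was -0.29. With the longest transcript as length, this mean became 0.36, so that the order of Fst and Mstn depends on the length assigned to them.

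**Figure D5:**
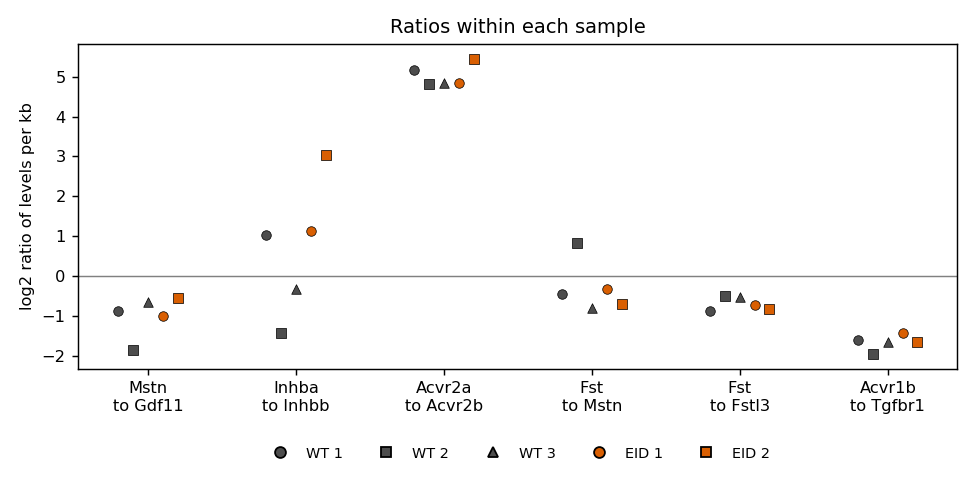
Log2 ratio of levels per kb (y axis) for 6 pairs of genes, 1 symbol per sample. The line at 0 marks equal levels. Inhba to Inhbb runs from -1.44 in WT 2 to 3.02 in EID 2, and Acvr2a to Acvr2b stays between 4.81 and 5.45.

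The rest of the pathway was described through 61 further genes in 5 lists, of which 53 had enough counts to be tested. Of these, 0 passed the limma test (2.23% of all genes did) and 0 the edgeR test, 11 had an unadjusted p under 0.05 (7 higher and 4 lower in EID, against 15.2% of all genes) and 17 had groups that did not overlap (10 higher and 7 lower, against 32.6%). Their median log2 fold change was 0.01. The DESeq2 Wald test, which called 5.34% of all genes, called 1 of the 53, Tgfbr3, the betaglycan co-receptor that lets inhibin compete for activin receptors. Tgfbr3 had 45.9, 22.4 and 32.3 normalized counts in WT and 73.3 and 105.8 in EID, a log2 fold change of 1.42 with a standard error of 0.35 (adjusted p = 0.104 from limma and 0.0211 from DESeq2). Its lowest value was again that of WT replicate 2, and without that sample its log2 fold change was 1.17 (adjusted p = 0.182 from limma).

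Of the 12 other ligands and receptors, 7 were tested. Inha, the inhibin alpha subunit, which pairs with the same beta subunits to make an activin antagonist, had 1653 to 2208 normalized counts in WT and 1320.0 and 1887 in EID, a log2 fold change of -0.23 (adjusted p = 0.617 from limma) that was 0.03 without EID replicate 1 and -0.49 without EID replicate 2. Its mean level per length, 1194 per kb, was above the mean of each of the 10 genes, but its range over the samples, 895 to 1497, overlapped those of Acvr2a and Gdf11. Tgfbr1 stood at 4381 ± 276 normalized counts in WT and 4262 ± 317 in EID (SD), and Bambi, a pseudoreceptor without kinase activity, 82.1 ± 23.1 and 96.3 ± 19.8. Acvr1c, a further type I receptor for activin B, had 3.01 ± 1.62 and 4.92 ± 0.62 normalized counts, close to the floor. Inhbc, Inhbe, Gdf1 and Tdgf1 were listed at 0 in all 5 samples.

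Of the processing enzymes, binding proteins and other antagonists, 13 of 15 were tested and 6 had an unadjusted p under 0.05, 3 in each direction, against 15.2% of all genes, and 7 had groups that did not overlap (3 higher and 4 lower in EID), against 32.6%. The 3 lower ones were Furin, Bmp1 and Fstl4, and the 3 higher ones Pcsk5, Pcsk6 and Dcn, of which all but Furin are named after their values were seen. Bmp1, a tolloid protease that cuts the myostatin propeptide, stood at 2700.2 ± 311 normalized counts in WT and 2109 ± 78.7 in EID (SD), with a log2 fold change of -0.35 (adjusted p = 0.164 from limma). Pcsk6, a convertase like furin, had 36.2, 33.7 and 36.1 normalized counts in WT and 51.0 and 88.8 in EID, with a log2 fold change of 0.91 (adjusted p = 0.197 from limma) that was 0.52 without EID replicate 2. The other 3, the convertase gene Pcsk5, the proteoglycan gene Dcn and the follistatin-like gene Fstl4, stayed under 20 normalized counts in every sample. Furin, the convertase that cuts the precursors of these ligands, stood at 7071 ± 260.2 normalized counts in WT and 6324 ± 180.4 in EID (SD), a log2 fold change of -0.16 (adjusted p = 0.287 from limma) with both EID samples below every WT sample. Sgta, a co-chaperone, and Ltbp3, a matrix protein that binds latent ligands, had log2 fold changes of -0.03 and -0.12 (adjusted p = 0.892 and 0.464 from limma).

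Of the Smad effectors and cofactors, 11 of 12 were tested and 1 had an unadjusted p under 0.05, against 15.2% of all genes. Smad2, Smad3 and Smad4, which carry the signal, had log2 fold changes of -0.17, 0.01 and 0.07, and Smad7 of 0.41 (standard errors 0.10, 0.11, 0.06 and 0.23, adjusted p = 0.486, 0.966, 0.653 and 0.459 from limma). The phosphatase gene Ppm1a, and Ski and Skil, corepressors of the Smads, had 0.01, -0.15 and 0.16 (adjusted p = 0.987, 0.552 and 0.348 from limma). Of the 10 response genes of SMAD2 and SMAD3, 2 had an unadjusted p under 0.05, both higher in EID, against 15.2% of all genes, and 3 had groups that did not overlap, each higher in EID, against 32.6%. The 2 were Atf3 and Ltbp2, named after their values were seen, with log2 fold changes of 0.46 and 1.10 (adjusted p = 0.228 and 0.158 from limma), which were 0.24 and 0.50 without EID replicate 2. Cdkn1a, a cell cycle inhibitor, stood at 87407 ± 4218 normalized counts in WT and 84838 ± 5184 in EID (SD). Col1a1, a fibrillar collagen, had a log2 fold change of 0.33 with a standard error of 0.56 (limma, adjusted p = 0.838), which turned to -0.17 without WT replicate 2 and -0.14 without EID replicate 2.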

How the data were processed

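Poly-A RNA from 72 h differentiated primary myoblasts of WT (n = 3) and EID (n = 2) mice was sequenced as stranded 50-base read pairs. Per the submitters' processing notes and the methods, reads were aligned to GRCm38 with STAR 2.5.1b without trimming, featureCounts 1.4.6 counted uniquely mapped reads for each gene, reverse stranded, and DESeq2 1.34.0 gave size factors. The deposited signal is the count divided by the size factor of the sample. Whole reads were recovered from the smallest positive value of each sample (100.0% of positive values whole within 0.01 of a read), with totals of 35021856 to 49381544. Groups came from the sample titles. The reporting summary says that primary cells typically came from 3 independent mice, without naming these samples. Whether each sample is a separate mouse is therefore not known. The p-values weigh the difference between genotypes against the variation among these samples.

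Fold changes are EID over WT on log2(normalized count + 1), which understates changes of low genes. Genes that reached 5 normalized counts in 1 sample or more (18156) were tested two-sided with limma 3.58.1 (lmFit, eBayes with trend, no block), with Benjamini-Hochberg adjustment over all of them and a threshold of 0.05. Alternatives were other pseudocounts, filters and scalings, edgeR 4.0.16 and DESeq2 1.42.0 on recovered reads (edgeR called 408 genes and DESeq2 969), no trend, a replicate block and leaving out each sample. The main limma fit and the edgeR and DESeq2 fits were run on simulated data, and the other alternatives were not. R 4.3.3, Python 3.11.15, pandas 2.3.3 and Biopython 1.88 were used. The 10 genes, the pathway and marker lists and the rule for named genes were chosen with earlier results of these data known. That rule takes the 10 genes, pathway genes that pass, Tgfbr1, Acvr1c, Smad2, Smad3, Smad4 and Smad7, up to 3 further genes of each list by mean count, and the 3 genes most like Mstn. A gene that the rule names is not reported here. Names and positions came from GENCODE M21 (54165 of 54232 identifiers matched). The methods name an older Ensembl annotation, so exon lengths could differ from those used in counting.

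Other marker lists were summed. Pericyte markers had 12349 to 14246 normalized counts in WT and 11408 to 11761 in EID. This sum hides Rgs5 and Notch3, which passed as lower in EID (log2 fold changes -2.97 and -1.55, limma adjusted p = 0.00759 and 0.028). With 1 WT sample left out, limma adjusted p was 0.0119 to 0.0357 for Rgs5 and 0.0625 to 0.112 for Notch3. Without EID replicate 1 or 2, the log2 fold changes were -2.85 and -3.08 for Rgs5 and -2.00 and -1.09 for Notch3. Of the 7 markers tested, 3 others had groups apart and higher in EID. These were Myh11, Cspg4 and Mcam (log2 fold changes 1.42, 0.39 and 0.61), and none of them passed. Schwann markers had 243, 142 and 686 in WT and 848 and 552 in EID (Gfra3 at or under the floor throughout), macrophage markers 81.3 to 97.6 and 79.8 to 217, and cycling markers 3054 to 4366 and 2902 to 3105.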

Additional observations from a re-analysis of the deposited data

How the results depend on the processing

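None of the 10 genes passed under any of the 15 alternatives, and 8 of their 150 fold changes turned sign, all when 1 sample was left out. Mstn turned to -0.16 without WT replicate 2 and -0.01 without EID replicate 2 (leave-one-out range -0.16 to 0.51), Fstl1 to -0.007 and -0.027 (-0.027 to 0.57), Acvr2b to 0.15 without EID replicate 2 (-0.37 to 0.15), and Fstl3 to 0.05 without WT replicate 1, 0.03 without WT replicate 2 and 0.089 without EID replicate 1 (-0.105 to 0.089). Inhba ranged from 0.46 to 1.32, Inhbb from -2.15 to -0.58. Over all genes, the count of 404 became 155 with every gene above 0 (98 higher, 57 lower), 969 with DESeq2, 144 without the trend (97 higher, 47 lower) and 54 to 349 when 1 sample was left out (150 without WT replicate 1, 209 without WT replicate 2, 112 without EID replicate 1, 54 without EID replicate 2). Of the other pathway genes, 1 passed with DESeq2 (Tgfbr3), and 0 to 1 when 1 sample was left out, Ltbp2 without EID replicate 1, named after its value was seen. When 1 sample was left out, log2 fold changes of other named pathway genes also turned sign. These were Inha, Tgfbr1, Sgta, Smad3, Ppm1a, Cdkn1a, Pmepa1, Col1a1, Akt1 and Akt2. Some pathway genes that are not named turned as well. The causes were not tested.

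With a block for the replicate number, 224 genes passed and none of the 10, with Mstn at 0.51, Inhba at 1.10 and Inhbb at -1.19. Same-numbered samples did not deviate together (correlation -0.24 over 13769 genes, which are not independent replicates), so the pairing was not used.

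With the longest transcript as length, the means per kb became 874 for Fstl1, 792 for Fstl3, 617 for Fst and 38.0 for Acvr2b, Fst passed above Mstn, and the mean log2 ratios became 4.72 for Acvr2a to Acvr2b, 0.36 for Fst to Mstn and -0.36 for Fst to Fstl3. What read depth adds to the spread within groups was not tested.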

Other observations

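Genes through which the pathway is known to act on muscle mass were examined as a list of 12. None passed the limma test adjusted over all genes, 1 had an unadjusted p under 0.05 (15.2% of all genes did), and the median log2 fold change was -0.01. Pdk4, a kinase that limits glucose oxidation and a FOXO target, had 29262, 30677 and 44817 normalized counts in WT and 48863 and 40419 in EID, so that WT replicate 3 lay between the EID samples (log2 fold change 0.38, standard error 0.19, adjusted p = 0.419 from limma). The kinase genes Akt1 and Akt2 had log2 fold changes of -0.001 and 0.03.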
